A study of Arabidopsis thaliana with 12 samples.

Results

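*Arabidopsis* seedlings without cryptochrome 1, a receptor for blue light, were set against WT seedlings after 2 h at 44°C, with 3 libraries of *cry1* mutants and 3 of WT, 6 of the 12 libraries of the series. All 26891 genes of the deposited table belong to the comparison. The *cry1* mutants and the WT, both in the Columbia background, were 8-day-old whole seedlings grown at 22°C in continuous light and moved to blue light for a day before the heat, and the other 6 libraries are the same genotypes kept at 22°C for the same time. The labels give the mutant only as *cry1*, the study's list of mutants names *cry1-304*, and the samples used here hold no other allele. The study's methods call the 3 replicates of a group independent biological samples.

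Cryptochromes are flavoproteins that absorb blue light. In the light, active CRY1 binds the COP1/SPA complex, an E3 ubiquitin ligase assembly that targets HY5 and other activators of photomorphogenesis for degradation, so seedlings without CRY1 grow long hypocotyls and accumulate less anthocyanin in blue light. Heat above the range a seedling tolerates activates the HSFs, the transcription factors that switch on the chaperone genes.

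Total counts per library were 15228950 to 16150210 in *cry1* (median 15278859) and 10539263 to 11967950 in WT (median 10697253), so the *cry1* libraries were deeper without overlap. Levels below are CPM, each count divided by the total of its library and brought to a common total. The chaperone genes (small HSPs and cytosolic HSP70, HSP90 and HSP101) took 15.9% ± 0.693 of the counts in *cry1* and 13.1% ± 0.666 in WT (SD, n = 3 each). These are bulk samples, so fewer cells of a type and less RNA per cell cannot be told apart. Seedling markers were as labelled, since the antenna gene *LHCB1.1* stood at 711 CPM or more in every library at 44°C and 20 root markers together at 57.3 CPM or more.

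*CRY1* itself (AT4G08920, TAIR10.1 chromosome 4, 5723651 to 5727268) had 0, 0 and 0 CPM in *cry1*, against 174, 151 and 166 CPM in WT. Its level was at least 849-fold lower in *cry1*, taking 3 counts per library (0.186 to 0.197 CPM) as the floor, a limit that covers counting error only. Other genes were missing from the *cry1* libraries as well. The neighbour *ARGAH1* (AT4G08900), which encodes an arginase, had no count in *cry1* and a mean of 16.1 CPM in WT, at least 83.3-fold lower, while *APRL6* on the other side of *CRY1* stood at 10.8 CPM in *cry1* and 11.6 CPM in WT.

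A second stretch without counts lay on chromosome 1, from *RL6* to AT1G75300 (28244317 to 28257236). It holds *DHAR2* (AT1G75270), a cytosolic dehydroascorbate reductase that recycles ascorbate, with 0, 0 and 0 CPM in *cry1*, against 32.5, 33.6 and 29.4 CPM in WT, at least 165-fold lower. In the same stretch AT1G75280 had 0, 0 and 0 CPM in *cry1*, against 28.7, 23.3 and 20.2 CPM in WT, at least 125-fold lower. *HB33*, a zinc-finger homeobox gene at the edge of the stretch, had 0.557, 0.458 and 0.591 CPM in *cry1*, against 13.2, 13.3 and 11.6 CPM in WT. Its log2 fold change (log2FC) was -4.54 (standard error, SE, 0.24, Benjamini-Hochberg adjusted p = 2.0e-13 in edgeR's quasi-likelihood test). The genes on either side of the stretch did not share the loss, with 6.07 CPM for AT1G75230 in *cry1* against 6.26 CPM in WT, and 13 CPM for *AUL1* in *cry1* against 12.7 CPM in WT. Both groups of genes were also at or near 0 in *cry1* at 22°C. The loss of *CRY1* and the loss of these other genes cannot be told apart without another allele.

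**Figure D1:**
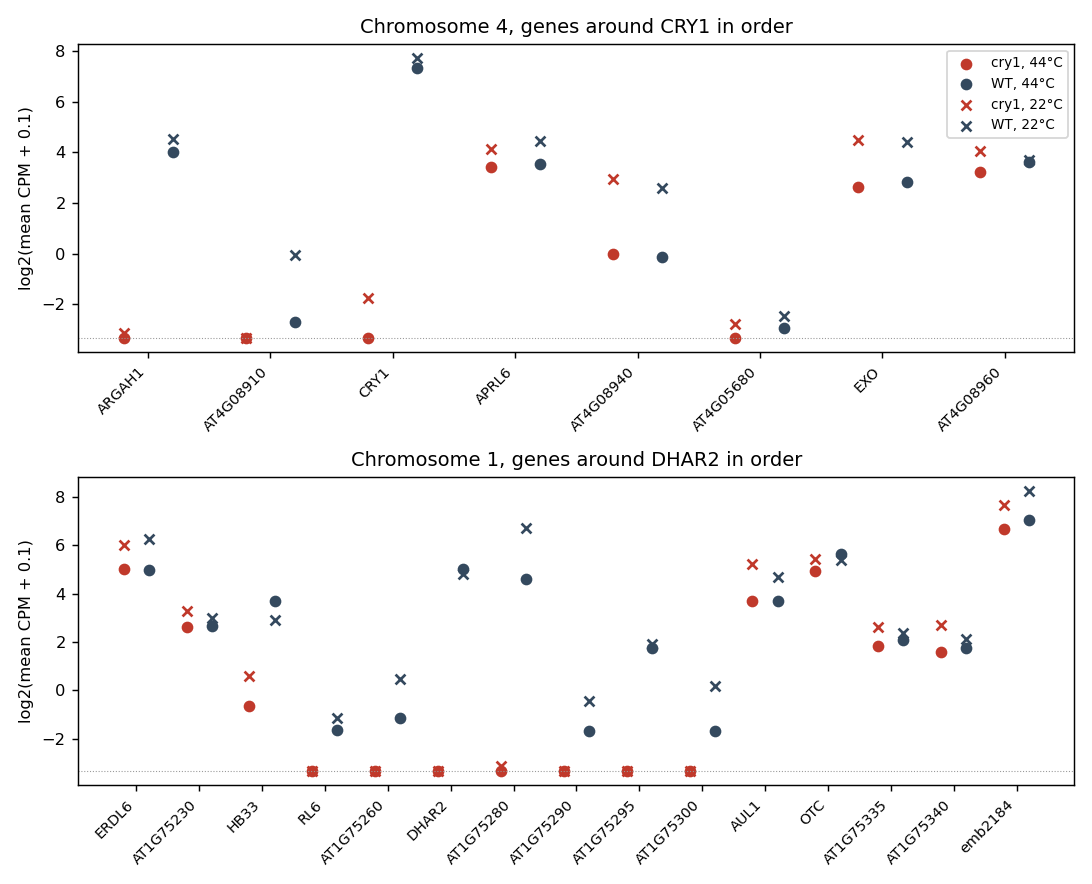
Mean level (log2 of mean CPM + 0.1, vertical axis) of the genes around *CRY1* on chromosome 4 (top) and around *DHAR2* on chromosome 1 (bottom), in chromosome order, for *cry1* (red) and WT (dark blue) at 44°C (circles) and 22°C (crosses), 3 libraries each. The dotted line marks 0 CPM, where *ARGAH1*, *CRY1* and the genes from *RL6* to AT1G75300 lie in *cry1* at 44°C.

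*SGS3*, which encodes a plant-specific protein that works with the RNA-dependent RNA polymerase RDR6 to make trans-acting siRNAs, was also nearly lost. It had 0.433, 0.327 and 0.197 CPM in *cry1*, against 5.50, 4.68 and 5.80 CPM in WT, without overlap (log2FC -4.01, SE 0.34, adjusted p = 1.9e-09). At 22°C its mean was 1.38 CPM in *cry1* and 14.9 CPM in WT. This loss, too, cannot be told apart from the loss of *CRY1* without another allele. Its part in the levels of the target genes below was not tested. Other genes of the trans-acting siRNA pathway did not pass the test, with log2FC values of 0.13 for *RDR6*, 0.06 for *DCL4* and 0.15 for *AGO1* (adjusted p = 0.55, 0.78 and 0.21). *AGO7* was below the limit for testing. Of 8 genes that are targets of trans-acting siRNAs by annotation or textbook knowledge, a list drawn up after the values were seen, 7 were tested and 7 were higher in *cry1*. Because the list followed the values, its count is no independent support. Over all genes tested, 9.45% were higher at an adjusted p under 0.05. *ETT* (*ARF3*), an auxin response factor that patterns organs, had 28.7, 35.4 and 34.0 CPM in *cry1*, against 7.78, 3.76 and 5.23 CPM in WT (log2FC 2.56, adjusted p = 2.0e-08). *ARF4* and *ARF2*, factors of the same family, had log2FC values of 0.68 and 0.32 (adjusted p = 2.5e-04 and 0.0031). AT5G18040, a target of trans-acting siRNAs by annotation, had 56.2, 52.2 and 55.3 CPM in *cry1*, against 23.7, 18.5 and 23.4 CPM in WT.

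Genes were tested where their mean over the 6 libraries was at least 0.5 CPM, which left 18575, by edgeR's quasi-likelihood test with Benjamini-Hochberg adjustment. Calls needed an adjusted p under 0.05 with at least a 2-fold change. In *cry1*, 422 genes were higher (2.27%) and 666 were lower (3.59%). With the counts scaled by median ratios in place of library totals, the split became 526 higher and 498 lower, and the median log2FC over all genes, -0.10 with totals, became -0.01. All 422 higher genes were called under that scaling too, and 498 of the 666 lower genes. Most changes were moderate, and 103 higher and 95 lower genes changed more than 4-fold. The libraries of the 2 genotypes did not overlap for 411 of the 422 and 645 of the 666 genes. Over all genes tested, 14.7% stood higher in *cry1* without overlap and 26.7% lower.

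**Figure D2:**
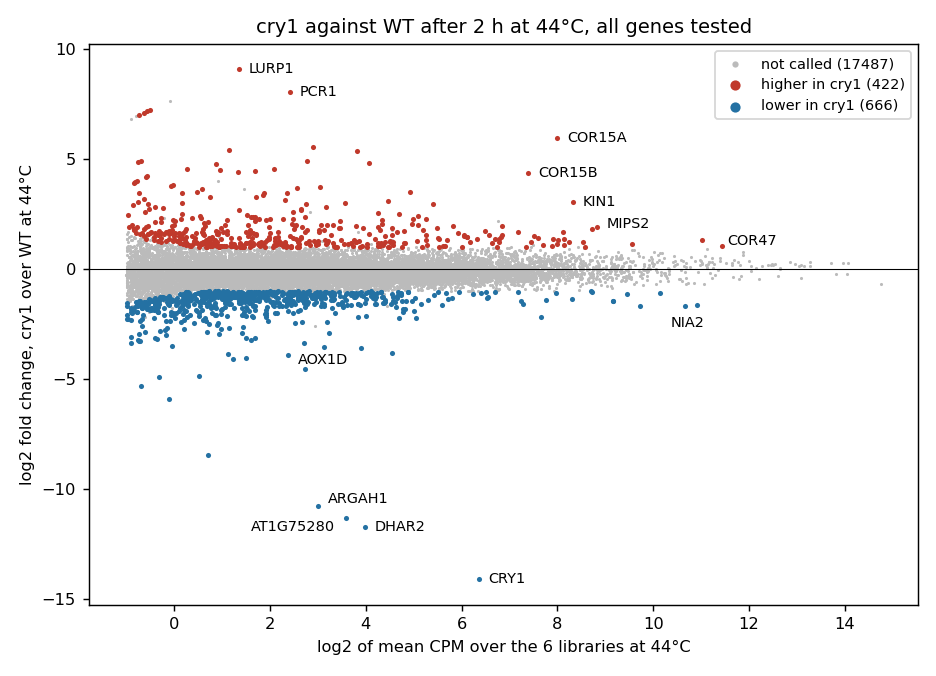
Log2 fold change of *cry1* over WT at 44°C (vertical axis) against the log2 of the mean CPM over the 6 libraries (horizontal axis) for the 18575 genes tested. Red points are the 422 called higher and blue points the 666 called lower in *cry1*. The points below -10 are *CRY1*, *DHAR2*, AT1G75280 and *ARGAH1*, whose fitted values depend on the small constant that edgeR adds to counts of 0.

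For members of gene lists the adjusted p alone was used, at which 9.45% of all genes tested were higher in *cry1* and 18.5% lower. Over 25 lists with 645 genes, 581 were tested. Their median log2FC ran from -0.91 for glucosinolate synthesis to 1.09 for the cold and dehydration response.

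**Figure D3:**
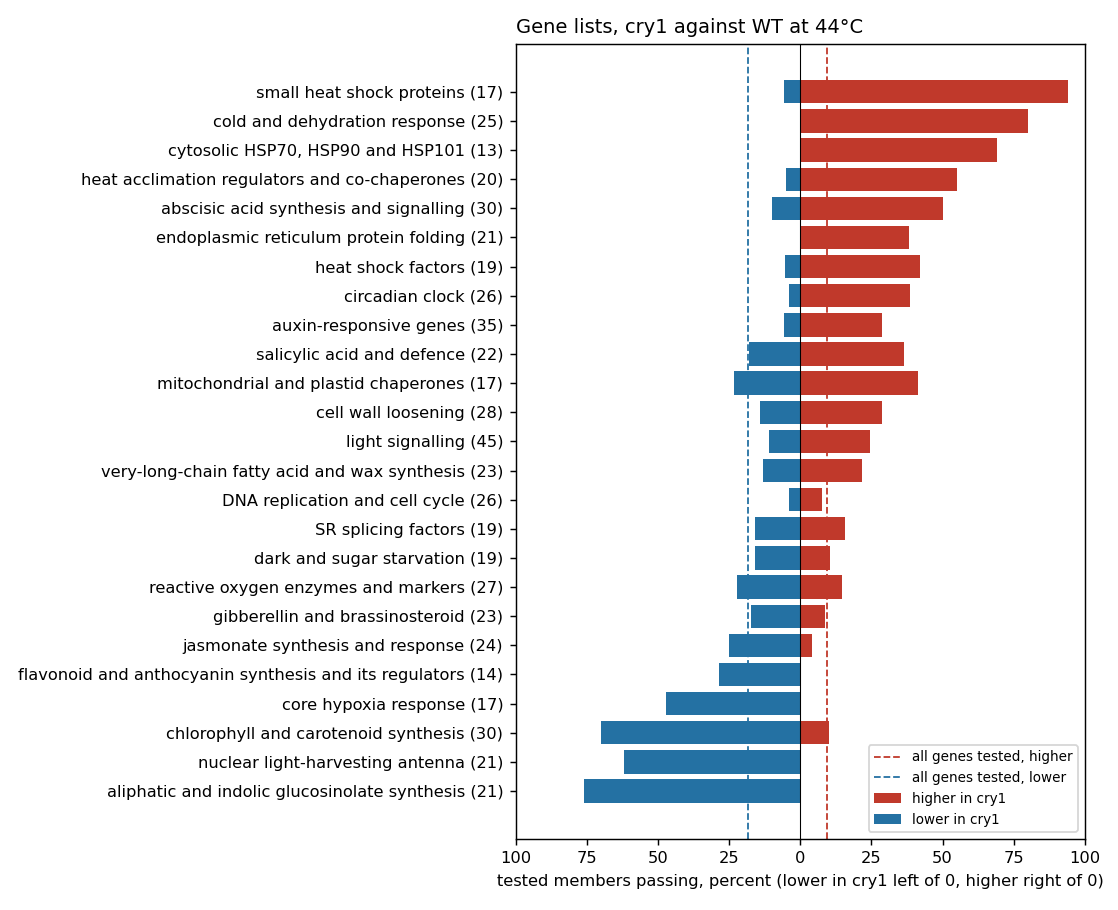
Share of tested members of each of 25 gene lists (number tested in brackets) that were higher (red, right of 0) or lower (blue, left of 0) in *cry1* at 44°C at an adjusted p under 0.05. Dashed lines mark the shares over all genes tested, 9.45% higher and 18.5% lower.

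Cold and dehydration genes had the highest median change of the 25 lists. Of 25 tested, 20 were higher in *cry1*, 0 were lower (1 without WT replicate 2) and 5 did not pass. The median log2FC was 1.09 against -0.10 over all genes. Without heat, at 22°C, 16 of the 25 were already higher and 1 lower, with a median log2FC of 0.68 against 0.25 over all genes. With median-ratio scaling the 22°C counts were 12 and 2, with medians of 0.44 and 0.01. By edgeR's interaction test, the difference between temperatures passed upward for 10 and downward for 1, or 16 and 0 with median-ratio scaling. *COR15A* (AT2G42540), which encodes a chloroplast protein that protects membranes during freezing and drying, had 396, 668 and 444 CPM in *cry1*, against 5.88, 13 and 4.39 CPM in WT. The libraries were far apart, with the second *cry1* library highest and the second WT library highest among the WT, and the log2FC was 5.99 (SE 0.50, adjusted p = 0.0017). Its neighbour and close relative *COR15B* had 328, 371 and 263 CPM in *cry1*, against 13.9, 21.6 and 10.8 CPM in WT (log2FC 4.37, adjusted p = 5.5e-04).

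*KIN1*, which encodes a small hydrophilic protein of cold and drought, had 556, 650 and 507 CPM in *cry1*, against 55.9, 95.7 and 56.2 CPM in WT (log2FC 3.04, adjusted p = 0.0017). *GOLS3*, a galactinol synthase for raffinose sugars that is known from cold, had 11, 14.3 and 7.75 CPM in *cry1*, against 0.664, 0.919 and 0.935 CPM in WT (log2FC 3.69, adjusted p = 4.7e-10). In each of these genes the lowest *cry1* library was far above the highest WT library. *COR47*, a dehydrin, was already abundant in WT, with 3700, 3760 and 3720 CPM in *cry1*, against 1850, 1910 and 1690 CPM in WT (log2FC 1.04, adjusted p = 9.2e-11).

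The drought genes *RD29B* and *COR78* (*RD29A*) had log2FC values of 2.97 and 1.84 (adjusted p = 0.0074 and 1.2e-14), and the dehydrin gene *RAB18* one of 1.74 (adjusted p = 4.4e-04). The transcription factors that drive this set in the cold moved less. *CBF3* (*DREB1A*) had 30.5, 24.4 and 32.1 CPM in *cry1*, against 19.9, 17.1 and 17 CPM in WT (log2FC 0.69, adjusted p = 1.1e-04). *CBF1* and *CBF2* did not pass, at log2FC values of 0.41 and 0.24 (adjusted p = 0.12 and 0.29).

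CBF factors bind promoters at the core letters CCGAC. To show where these letters lie in the genes described, a stretch upstream of each start is printed 5′ to 3′ on the strand of the gene, from the TAIR10.1 genome, with CCGAC or its reverse complement GTCGG in capitals.
COR15A, chr2:17712375-17712439, minus strand: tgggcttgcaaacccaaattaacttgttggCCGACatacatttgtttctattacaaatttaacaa
COR15B, chr2:17710664-17710728, minus strand: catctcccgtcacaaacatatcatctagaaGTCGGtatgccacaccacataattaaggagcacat
COR47, chr1:7087207-7087271, minus strand: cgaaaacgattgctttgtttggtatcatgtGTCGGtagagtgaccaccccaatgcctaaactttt
COR78, chr5:21240654-21240716, plus strand: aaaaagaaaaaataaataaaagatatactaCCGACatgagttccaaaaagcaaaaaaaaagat
GOLS3, chr1:3019404-3019468, plus strand: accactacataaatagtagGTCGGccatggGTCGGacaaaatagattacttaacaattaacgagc

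The match shown begins 79 bases before the annotated start in *COR15A*, 265 in *COR15B*, 368 in *COR47* and 33 in *COR78*, and the nearer of the pair in *GOLS3* begins 205 bases before. *KIN1* had no match in its 500 bases. CCGAC on either strand was found in the 500 bases upstream of 52.0% of the 25 cold and dehydration genes and of 23.1% of all genes tested. It was found in 31.0% of the promoters of the called higher genes (131 of 422, exact 95% interval 26.7 to 35.7) and in 21.3% of the called lower genes (142 of 666). CACGTG, the palindromic core of the element that HY5 and ABA-responsive factors bind, stood in 24.2% of the higher genes (102 of 422, interval 20.2 to 28.5), 8.71% of the lower genes (58 of 666, interval 6.68 to 11.1) and 10.4% of all genes tested. A heat shock element (GAA, any 2 bases, TTC, any 2 bases and GAA, on either strand) was rare, at 0.474%, 0.751% and 0.894% of the higher, the lower and all genes. A CCGAC match can share its end letter with a CACGTG match, and a match is a description of letters only.

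Seed storage genes moved in the same direction. Of 10 markers of the maturing seed, 5 were tested, and all 5 were higher in *cry1*. Genes this low in WT pass the filter of 0.5 CPM over the 6 libraries mainly through *cry1*, so that count is no support. The summed level of all 10 genes, tested or not, was 129, 131 and 63.3 CPM in the *cry1* libraries, against 12.7, 3.68 and 5.52 CPM in the WT libraries. None of the 10 was at 0 in all libraries of a genotype at 44°C. *CRC* (AT4G28520), which encodes the storage protein cruciferin C, had 31.2, 33.9 and 17.5 CPM in *cry1*, against 0.664, 0.418 and 0.935 CPM in WT (log2FC 5.36, SE 0.41, adjusted p = 3.5e-05). *OLEO2*, an oleosin of seed oil bodies, had 17.4, 20.3 and 8.01 CPM in *cry1*, against 1.61, 0.752 and 1.03 CPM in WT. At 22°C the summed level ranged from 87.3 to 402 CPM in *cry1* and from 21.1 to 35.3 CPM in WT, so the genotypes did not overlap there either. *cry1* replicate 3 had the lowest level of these genes at 44°C and also of *RD29B* and *GOLS3*. The part of the seed storage markers in the cold and dehydration result was not tested.

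**Figure D4:**
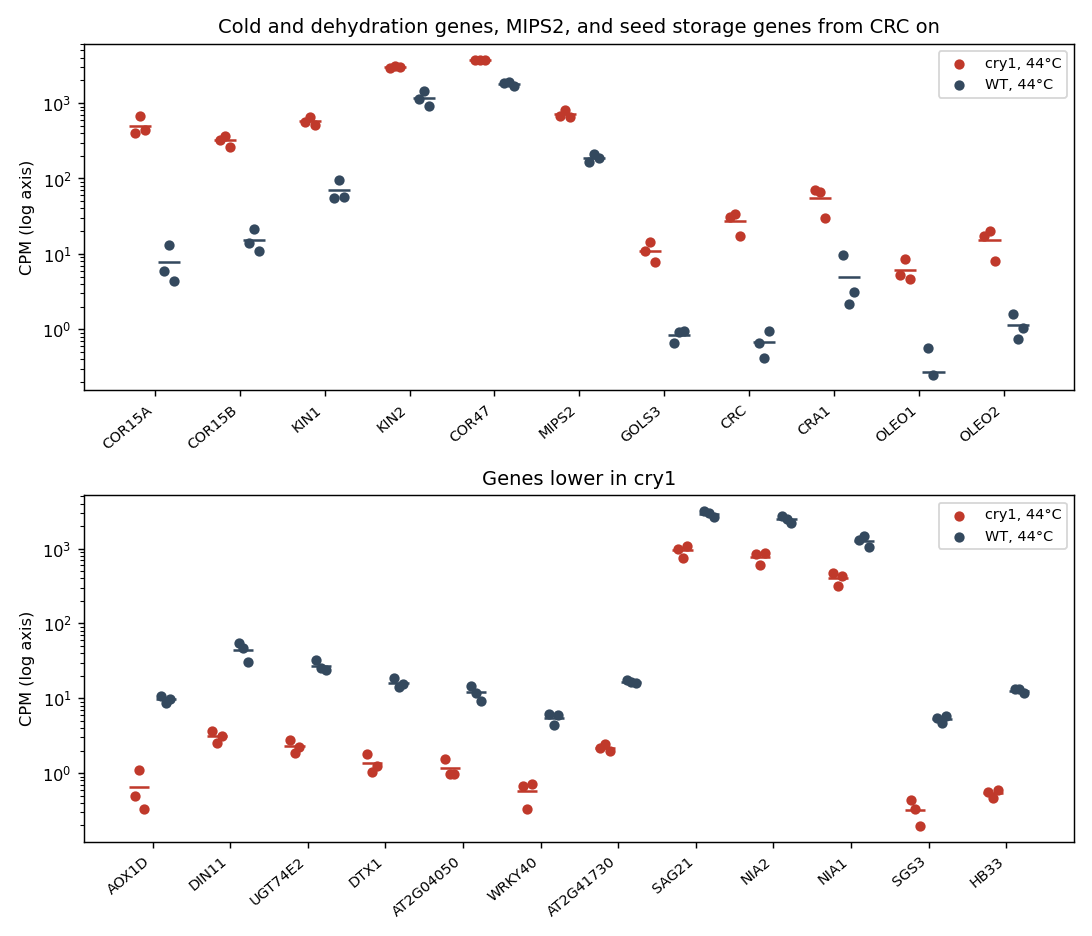
CPM in each library at 44°C (log axis) for 11 genes higher in *cry1* (top) and 12 genes lower in *cry1* (bottom), with *cry1* in red and WT in dark blue, and the mean of 3 libraries as a bar. The genotypes do not overlap for any gene shown, and the WT library with 0 CPM of *OLEO1* lies off the log axis.

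Genes of abscisic acid (ABA), the hormone of drought and seed maturation, also tended upward. Of 30 tested, 15 were higher in *cry1* and 3 were lower, with a median log2FC of 0.28. At 22°C 19 were higher and 5 lower, with a median of 0.34, or 9 and 6 with a median of 0.10 by median-ratio scaling. The interaction with temperature passed upward for 2 and downward for 5, or 9 and 0 with median-ratio scaling. *ABF3*, a bZIP factor that activates ABA-responsive genes, had 191, 229 and 197 CPM in *cry1*, against 120, 128 and 97.4 CPM in WT (log2FC 0.84, adjusted p = 8.4e-07). *HAI2*, a PP2C phosphatase induced by ABA, had a log2FC of 1.29 (adjusted p = 3.8e-05), and *HAI1* one of 1.39 (adjusted p = 0.014, and 0.07 without WT replicate 1). The members that fell were ABA receptors, *PYL5*, *PYR1* and *PYL4*, at log2FC values of -1.18, -0.86 and -0.80 (adjusted p = 2.9e-07, 1.6e-05 and 1.8e-04).

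Among the genes with the largest gains in CPM, *MIPS2* (AT2G22240), which encodes a myo-inositol phosphate synthase and so feeds galactinol and phytate, had 678, 817 and 658 CPM in *cry1*, against 165, 209 and 187 CPM in WT. It was higher in every *cry1* library (log2FC 1.94, SE 0.10, adjusted p = 1.8e-12), while its relative *MIPS1* had a log2FC of 0.24 that did not pass (adjusted p = 0.055). *AT1G13930*, annotated as an oleosin-B3-like protein, had 1020, 1060 and 1020 CPM in *cry1*, against 470, 523 and 415 CPM in WT (log2FC 1.14, adjusted p = 1.3e-10).

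Light signalling genes had 11 of 45 tested members higher in *cry1* and 5 lower, with *CRY1* itself among the 5. The shares were 24.4% higher and 11.1% lower, against 9.45% and 18.5% over all genes tested. The 5 became 3 without WT replicate 1 or *cry1* replicate 3 and with median-ratio scaling, which gave 15 higher. The genes of the COP1/SPA complex did not pass at 44°C, with *COP1* at a log2FC of -0.18 (adjusted p = 0.24) and *SPA1* at 0.22 (adjusted p = 0.084, and 0.016 with median-ratio scaling). *CRY2*, the other cryptochrome, had 180, 160 and 167 CPM in *cry1*, against 160, 147 and 146 CPM in WT (log2FC 0.16, adjusted p = 0.15, and 0.013 with median-ratio scaling). *HY5*, the bZIP factor that COP1 targets, had 49.7, 47.7 and 52.7 CPM in *cry1*, against 25, 35.6 and 26.6 CPM in WT. The *HY5* libraries did not overlap (log2FC 0.78, adjusted p = 1.1e-05), and at 22°C its log2FC was -0.39. *HYH*, its homolog, did not pass at 44°C (log2FC 0.09, adjusted p = 0.78).

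Apart from *CRY1* itself, which is on the list, the largest changes that passed were in B-box genes. *BBX32*, a B-box protein that counteracts HY5, had 58.6, 53.3 and 46.4 CPM in *cry1*, against 8.54, 15.9 and 7.85 CPM in WT (log2FC 2.28, SE 0.26, adjusted p = 9.8e-04). *BBX30*, a small B-box protein, had 50.4, 55.2 and 44.9 CPM in *cry1*, against 12.9, 15.1 and 7.95 CPM in WT (log2FC 2.06, adjusted p = 5.3e-06). *PIF4*, the growth-promoting bHLH factor of warm temperature, had 82.0, 85.2 and 87.9 CPM in *cry1*, against 48.8, 47.0 and 42.5 CPM in WT, and *HFR1*, which inhibits PIFs, had a log2FC of 0.75 (adjusted p = 6.7e-07). *PIF1*, a repressor of germination and greening, and *PHYD*, a phytochrome, were lower, at log2FC values of -0.75 and -0.66 (adjusted p = 0.001 and 6.7e-04). Of 26 clock genes 10 were higher and 1 was lower, or 16 and 1 with median-ratio scaling, with *GI* and *TOC1*, both expressed in the evening, at log2FC values of 0.62 and 0.56 (adjusted p = 4.5e-06 and 4.1e-05).

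Antenna and pigment genes of photosynthesis were mostly lower. Of 21 genes of the light-harvesting antenna, 13 were lower in *cry1* and 0 were higher, with a median log2FC of -0.34, and 8 were lower with median-ratio scaling or without *cry1* replicate 1. At 22°C 20 of the 21 were lower in *cry1*, in both scalings, with a median log2FC of -0.67 (-0.92 with median-ratio scaling). *LHCB1.1* had 732, 729 and 711 CPM in *cry1*, against 1510, 1800 and 1300 CPM in WT (log2FC -1.09, adjusted p = 1.5e-08), and reads may be split among the near-identical *LHCB1* copies. *LHCB6*, a minor antenna protein, had 394, 413 and 424 CPM in *cry1*, against 690, 740 and 660 CPM in WT (log2FC -0.76, adjusted p = 4.3e-08). Of 30 genes of chlorophyll and carotenoid synthesis, 21 were lower and 3 higher. *GUN4*, a regulator of magnesium chelatase, and *CHLG*, chlorophyll synthase, had log2FC values of -1.10 and -0.91 (adjusted p = 3.4e-06 and 3.8e-06). The 3 that rose were *BCH2*, *PORC* and *ZEP*. *BCH2*, a carotene hydroxylase that makes xanthophylls, had 100, 102 and 92.4 CPM in *cry1*, against 28.1, 46.5 and 26.4 CPM in WT (log2FC 1.54, adjusted p = 0.0031). *ZEP*, which makes violaxanthin and so the precursor of ABA, had one of 0.45 (adjusted p = 4.8e-04).

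Glucosinolate genes had the lowest median of the lists. Of 21 tested genes for the sulfur-rich defence compounds of the mustard family, 16 were lower in *cry1*, 0 were higher and 5 did not pass. The median log2FC was -0.91, against -0.10 over all genes, and 13 were lower with median-ratio scaling. *MAM1*, which elongates methionine side chains, had 11.2, 7.79 and 8.14 CPM in *cry1*, against 28.6, 30.9 and 22.6 CPM in WT (log2FC -1.59, SE 0.15, adjusted p = 2.5e-08). *BCAT4*, which starts that elongation, had 4.46, 3.86 and 4.14 CPM in *cry1*, against 14.8, 13.6 and 11.1 CPM in WT (log2FC -1.66, adjusted p = 4.3e-08). *CYP83A1*, a P450 of the core pathway, and *SOT16*, a sulfotransferase of its last core step, had log2FC values of -2.07 and -1.28 (adjusted p = 1.3e-05 and 1.6e-07). *MYB28*, the activator of the aliphatic branch, did not pass (log2FC -0.82, adjusted p = 0.16).

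*AOX1D*, *UGT74E2* and *DTX1* were among the genes with the largest fold losses. *AOX1D*, an alternative oxidase that bypasses the cytochrome pathway of respiration, had 0.495, 1.11 and 0.328 CPM in *cry1*, against 10.8, 8.61 and 9.91 CPM in WT (log2FC -3.90, SE 0.28, adjusted p = 1.4e-10). *UGT74E2*, a glucosyltransferase for an auxin precursor and a stress marker, had 2.79, 1.83 and 2.23 CPM in *cry1*, against 32.3, 25.6 and 24.1 CPM in WT (log2FC -3.57, adjusted p = 3.0e-14). *DTX1*, a MATE efflux carrier, and its neighbour AT2G04050 of the same family had log2FC values of -3.54 and -3.33 (adjusted p = 1.9e-12 and 9.2e-11), and reads may be split between such close relatives. Of 15 genes known to respond to mitochondrial dysfunction, a list drawn up after these values were seen, 14 were tested, 7 were lower in *cry1* and 2 were higher. The list holds *AOX1D* and *UGT74E2* themselves, so its count is no independent support. Over all genes tested, 18.5% were lower and 9.45% higher. *SOT12* and AT2G21640 were lower, at log2FC values of -2.22 and -1.64 (adjusted p = 1.5e-09 and 2.3e-07). *AOX1A*, the main alternative oxidase gene, did not pass (log2FC -0.23, adjusted p = 0.092), and *NAC13*, a factor that activates this set, was higher (0.71, adjusted p = 8.1e-06).

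*DIN11*, a gene of dark and sugar starvation, had 3.65, 2.49 and 3.15 CPM in *cry1*, against 54.1, 47.0 and 30.2 CPM in WT (log2FC -3.81, adjusted p = 4.4e-06). Its list of 19 tested genes had 2 higher (1 without WT replicate 2 or *cry1* replicate 1) and 3 lower, close to the shares over all genes. Of 17 core genes of the hypoxia response, 8 were lower and 0 higher (2 with median-ratio scaling, 1 without WT replicate 2), with *PDC1*, pyruvate decarboxylase, at 5.45, 3.6 and 2.82 CPM in *cry1*, against 13.3, 12.4 and 12.6 CPM in WT (log2FC -1.68, adjusted p = 3.2e-07). *PGB1*, a haemoglobin, and *LDH1*, lactate dehydrogenase, had log2FC values of -1.50 and -1.42 (adjusted p = 2.7e-05 and 3.8e-06), while *ADH1* did not pass (-0.13, adjusted p = 0.61).

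Among the largest losses in CPM were *SAG21*, a LEA-like mitochondrial protein, and both nitrate reductase genes. *SAG21* had 999, 757 and 1090 CPM in *cry1*, against 3170, 2970 and 2650 CPM in WT (log2FC -1.63, adjusted p = 3.4e-06). *NIA2* had 838, 609 and 883 CPM in *cry1*, against 2720, 2480 and 2210 CPM in WT (log2FC -1.67, adjusted p = 3.8e-05). *NIA1* had 471, 316 and 429 CPM in *cry1*, against 1310, 1470 and 1050 CPM in WT (log2FC -1.65, adjusted p = 0.0015). All 3 genes had their lowest level in *cry1* replicate 2. *NIR1*, the nitrite reductase of the next step, was lower as well (log2FC -0.99, adjusted p = 1.7e-04), whereas the nitrate transporter gene *NRT1.1* was higher (0.45, adjusted p = 0.002).

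Heat-shock genes were higher by small amounts. Of 17 small HSPs 16 were higher in *cry1* and 1 was lower, with a median log2FC of 0.34. The lower one was *HSP15.4*, at 4.89, 2.16 and 3.09 CPM in *cry1*, against 6.45, 7.60 and 9.16 CPM in WT (log2FC -1.19, adjusted p = 6.4e-04). Cytosolic HSP70, HSP90 and HSP101 genes had 9 of 13 higher, which became 5 without *cry1* replicate 2, and 0 lower, with a median log2FC of 0.24. Without heat, at 22°C, 13 of these 13 were higher in *cry1* (6 with median-ratio scaling) and 6 of the 17 small HSPs (2 with that scaling). Their median log2FC at 22°C was 0.57 and 0.59, against 0.25 over all genes, or 0.32 and 0.35 against 0.01 with median-ratio scaling. Genes of protein folding in the endoplasmic reticulum had 8 of 21 higher, also 5 without *cry1* replicate 2, and 0 lower. Chaperones of mitochondria and plastids had 7 of 17 higher, which became 4 without *cry1* replicate 3, and 4 lower. Of 19 *HSFs* 8 were higher and 1 was lower (2 without WT replicate 3 or *cry1* replicate 1). *HSFA1E*, of the group of HSFs that start the response, had 66.9, 71.5 and 61.1 CPM in *cry1*, against 28.2, 23.5 and 24.6 CPM in WT. Another member of that group, *HSFA1D*, had 15.2, 16.5 and 18.5 CPM in *cry1*, against 7.97, 10.3 and 8.6 CPM in WT (log2FC 0.90, adjusted p = 2.9e-05). *APX2*, an ascorbate peroxidase gene that HSFs activate, had 105, 111 and 87.4 CPM in *cry1*, against 36.4, 38.9 and 33.5 CPM in WT (log2FC 1.48, adjusted p = 2.5e-11).

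Other hormone and defence lists had mixed members. Of 24 jasmonate genes 1 was higher in *cry1* and 6 were lower, but 5 were higher and 4 lower with median-ratio scaling, so the balance turned. Leaving out WT replicate 2 or *cry1* replicate 2 left 3 lower, and 2 were higher without *cry1* replicate 3. The higher one with library totals was *CORI3*, a cystine lyase induced by coronatine, with 47.2, 48.5 and 36.8 CPM in *cry1*, against 6.74, 9.27 and 7.39 CPM in WT (log2FC 2.49, adjusted p = 1.8e-12). The lipoxygenase gene *LOX4* and the repressor gene *JAZ6* were lower, at log2FC values of -1.84 and -1.44 (adjusted p = 1.8e-06 and 2.0e-08). Of 22 genes of salicylic acid and defence 8 were higher and 4 lower. *SARD1*, an activator of salicylic acid synthesis, had 2.66, 1.96 and 1.84 CPM in *cry1*, against 0.474, 0.251 and 0.561 CPM in WT. *WRKY40*, a repressor of defence genes, had 0.681, 0.327 and 0.722 CPM in *cry1*, against 6.17, 4.34 and 5.89 CPM in WT (log2FC -3.22, adjusted p = 2.3e-08).

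*LURP1*, a defence gene, had 5.02, 7.66 and 2.56 CPM in *cry1* and no count in WT, at least 18.7-fold higher. Of 27 genes of reactive oxygen 4 were higher and 6 lower, but 8 were higher and 5 lower with median-ratio scaling. The catalase genes moved apart, *CAT3* at a log2FC of 0.79 and *CAT2* at -0.67 (adjusted p = 4.3e-08 and 6.7e-07). Of 35 auxin-responsive genes 10 were higher and 2 lower (1 with median-ratio scaling and without WT replicate 1 or *cry1* replicate 3). *IAA7*, an auxin repressor gene, had 501, 516 and 525 CPM in *cry1*, against 242, 223 and 291 CPM in WT (log2FC 1.03, adjusted p = 3.1e-09).

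The remaining lists are given by count. Heat acclimation regulators had 11 of 20 higher and 1 lower (2 without WT replicate 3), flavonoid genes 0 of 14 higher and 4 lower, and DNA replication genes 2 of 26 higher and 1 lower. Cell wall loosening genes had 8 of 28 higher, which became 4 without WT replicate 1 or *cry1* replicate 2, and 4 lower, which became 2 without WT replicate 1. Wax genes had 5 of 23 higher and 3 lower, with 3 higher when WT replicate 2 or *cry1* replicate 2 was left out and 8 higher with median-ratio scaling. Gibberellin and brassinosteroid genes had 2 of 23 higher and 4 lower, and 0 or 1 higher without any 1 library other than *cry1* replicate 1. SR splicing factors had 3 of 19 higher and 3 lower, but 7 and 1 with median-ratio scaling, 1 higher without *cry1* replicate 3 and 1 lower without *cry1* replicate 2.

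Markers of other organs and cell types were counted too. Of 14 root markers tested, 7 were lower in *cry1* and 0 were higher, with a summed level of 57.3 to 67.1 CPM in *cry1* and 77.0 to 92.9 CPM in WT, and 3 were lower with median-ratio scaling. Without WT replicate 2 or 3 or any 1 *cry1* library, 2 to 4 root markers were lower. Of 10 stomatal markers 0 were higher and 1 was lower, *FAMA*, at 1.42, 1.64 and 2.36 CPM in *cry1*, against 5.12, 4.26 and 5.52 CPM in WT. With median-ratio scaling 1 was higher and 1 lower. The summed stomatal level was 12.9 to 15 CPM in *cry1* and 17.8 to 19.8 CPM in WT. Pollen markers summed to 1.18 to 1.44 CPM in *cry1* and 1.42 to 1.68 CPM in WT, with 2 of 4 at 0 in both. The part of a lower root or stomatal share in the lower lists, among them the nitrate reductase and glucosinolate genes, was not tested.

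How far the differences also held without heat was read from the same genotypes at 22°C, in a fit of all 12 libraries. At 22°C, 36.1% of all genes tested were higher in *cry1* and 8.03% lower at an adjusted p under 0.05, with a median log2FC of 0.25 that median-ratio scaling sets to 0.01. Of the 422 genes higher at 44°C, 263 were also higher at 22°C, 165 of them by at least 2-fold, 21 were lower and 138 did not pass. Of the 666 genes lower at 44°C, 134 were also lower at 22°C, 84 were higher and 448 did not pass. With median-ratio scaling at 22°C, 177 of the 422 were also higher there and 26 lower, and 191 of the 666 were also lower and 29 higher. With library totals the median log2FC of the 666 was 0.04 at 22°C and -1.37 at 44°C.

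The change of the *cry1* effect between temperatures was tested as an interaction of genotype and temperature. With library totals, the effect was at least 2-fold higher at 44°C than at 22°C for 272 genes (1.46%) and lower for 1322 (7.12%), but median-ratio scaling gave 628 (3.38%) and 396 (2.13%), so the split between directions rests on the scaling. At an adjusted p under 0.05 alone, the interaction passed in both scalings, in the direction of the 44°C change, for 135 of the 422 higher and 309 of the 666 lower genes. These genes were chosen by their change in the same 44°C libraries, which favours a pass in that direction. Over all 18575 genes tested, 836 passed upward and 5295 downward with library totals, or 2460 and 1214 with median-ratio scaling. *COR15A* had a log2FC of 2.19 at 22°C, and its interaction was 3.80 (adjusted p = 9.6e-04, and 8.9e-04 with median-ratio scaling). *BBX32*, *BBX30*, *MIPS2* and *BCH2* were lower in *cry1* at 22°C, at log2FC values of -1.43, -0.97, -0.85 and -0.56 (adjusted p = 7.6e-04, 2.4e-04, 6.8e-06 and 0.019), and higher at 44°C. *AOX1D* went the other way, at 0.860 CPM in *cry1* and 0.334 CPM in WT at 22°C, with an interaction of -5.27 (adjusted p = 7.5e-06). None of the 5 seed storage genes passed this test, with *CRC* at an interaction of 0.24 (adjusted p = 0.95).

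**Figure D5:**
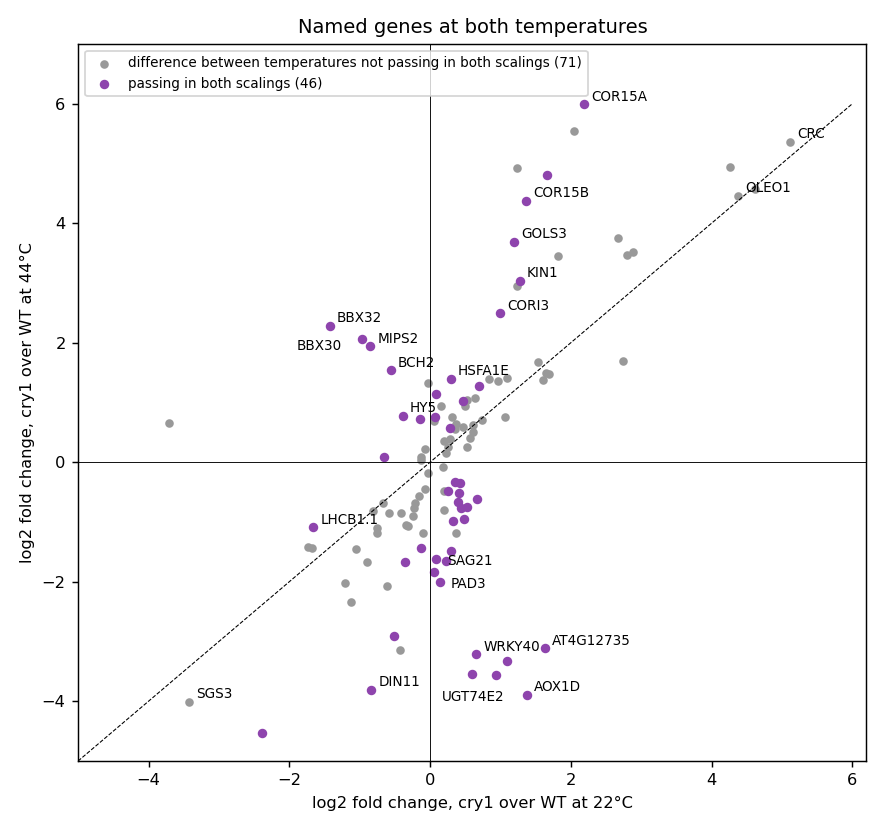
Log2 fold change of *cry1* over WT at 44°C (vertical axis) against that at 22°C (horizontal axis) for 117 named genes, with 6 more beyond the axes or at 0 counts. The 46 purple points passed the test of the difference between temperatures in both scalings and the 71 grey points did not. The dashed line marks equal change, and *BBX32*, *BBX30*, *MIPS2* and *BCH2* lie upper left, with *AOX1D*, *UGT74E2* and *WRKY40* lower right.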

How the data were processed

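Seedling RNA was sequenced in 12 libraries. The authors deposited expected counts per gene, estimated with RSEM on TAIR10 after trimming, of whose values above 0 between 8.5 and 11.6 percent per library carry decimals. The study gives rRNA depletion, and the labels add polyA RNA and a stranded kit. The submitters' processing notes name TopHat2 2.0.11. Reads of antisense partners cannot be told apart, as strand use in counting was not given in the sources used here. All 26891 identifiers matched the TAIR10.1 annotation, and 0 columns were unmapped. The age of the seedlings was taken from the labels, which differ from the study's methods on the days in white light.

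Counts were rounded and tested with edgeR 4.0.16 under R 4.3.3 (quasi-likelihood, robust setting, library totals as scale, Benjamini-Hochberg adjustment), on the 6 libraries at 44°C. The 22°C values and the interaction came from all 12 libraries. The common biological coefficient of variation was 10.1 percent. Replicates differed by more than sampling noise (chi-square per gene 4.65 to 7.2). The procedure was tested on simulated data. Promoter letters were read from the TAIR10.1 genome in the 500 bases before the annotated start.

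The comparison and the lists were chosen with earlier results of these data known. The named genes were *CRY1*, *CRY2*, *COP1*, *SPA1* to *SPA4*, *HY5* and *HYH*, the called genes with the largest changes (15 up, 15 down), with a mean of at least 5 CPM in the higher group and no overlap, up to 2 higher and 2 lower per list, and the 5 higher and 5 lower genes with the largest differences in CPM. Other genes named were chosen after their values were seen. Alternatives were TMM and median-ratio scaling, DESeq2 1.42.0, limma 3.58.1 on log2(CPM + 1) and log2(CPM + 0.1), no filter, a mean of at least 2 CPM, all 12 libraries in the fit, the replicate number as a block, an unadjusted p, and leaving out each library. The CCGAC search and the motif shares with median-ratio calls were added after the data were seen.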

Additional observations from a re-analysis of the deposited data

Results flagged for a closer look

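The *cry1* effect differed between 44°C and 22°C by edgeR's interaction test, at an adjusted p under 0.05 in both scalings, for 47 of the 123 named genes. Most of the 123 were named for their change at 44°C, which the interaction uses again, so the selection favours a pass. Values below are the log2 fold change of *cry1* over WT at 44°C minus that at 22°C, with library totals as the scale. Several cold, drought and sugar genes had the more positive effect at 44°C, with *COR15A* at 3.80, *COR15B* at 3.01, *GOLS3* at 2.50, *KIN1* at 1.77, *MIPS2* at 2.79 and AT1G13930 at 1.06. AT5G42530, which was called higher at 44°C, stood at 3.15. Light and pigment genes had values of both signs. Of the named ones, positive values were those of *BBX32* at 3.71, *BBX30* at 3.03, *BCH2* at 2.1, *HY5* at 1.17, *PORC* at 0.88, *HYH* at 0.75 and *LHCB1.1* at 0.57, while *PIF1* stood at -1.27. Over their whole lists, 14 of 45 light signalling genes passed upward and 6 downward, or 24 and 4 with median-ratio scaling. *CRY1* itself was among the downward ones. Of 30 genes of chlorophyll and carotenoid synthesis 8 passed in each direction, or 14 upward and 0 downward with median-ratio scaling. Of all 18575 genes tested, 836 passed upward and 5295 downward, or 2460 and 1214 with median-ratio scaling. With library totals, the downward share of neither list was above that over all genes.

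Among heat and hormone genes, *CORI3* stood at 1.5, *HSFA1E* at 1.1, *MYB96* at 0.68, *EXPA4* at 0.58, *IAA7* at 0.57 and *HSP70-16* at 0.29. The most negative values were those of *AOX1D* at -5.27, AT4G12735 at -4.74, *UGT74E2* at -4.50, AT2G04050 at -4.42, *DTX1* at -4.13, *WRKY40* at -3.87, *DIN11* at -2.97, AT2G41730 at -2.39 and *PAD3* at -2.15. *HB33*, at the edge of the stretch without counts, stood at -2.15. *CRY1* itself stood at -4.27, a value that rests on 12 counts at 22°C against 0 at 44°C in *cry1*.

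Of the abundant genes, *NIA1* stood at -1.88, *SAG21* at -1.71 and *NIA2* at -1.31. Other negative values were -1.90 for *LOX4*, -1.31 for *JAZ6*, -1.20 for *MYB30*, -1.80 for *EXPA10*, -1.43 for *EXPA9*, -1.28 for *GA2OX6* and -1.05 for *BES1*. The rest were *mtHsc70-1* at -1.31, *HOP1* at -0.92, *SCL30A* at -0.77, *CHE* at -0.74 and *RSZ22* at -0.68. Groups of 3 libraries were too small for a check of single libraries that stand apart.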

How the results depend on the processing

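No named gene past the threshold changed sign in any alternative run, but the balance of higher and lower calls turned with the scaling. Of the counts of genes, the 422 higher and 666 lower became 228 and 277 with limma on log2(CPM + 1), 263 and 396 at a mean of at least 2 CPM, where 14863 genes were tested, and 480 and 437 with DESeq2. They were 526 and 498 with median-ratio scaling and 537 and 487 with TMM. The counts for the interaction, 272 higher and 1322 lower, became 601 and 412 with TMM scaling and 628 and 396 with median-ratio scaling. Leaving out each library in turn gave 318 to 444 higher and 535 to 748 lower genes. The other alternatives left these counts within 1.5 times. The sums over the 25 lists, 162 higher and 114 lower, stayed within 1.5 times in every alternative run on them, but single lists did not. The changes from scaling or from 1 library stand beside each list in the report. In the fit of all 12 libraries, the members higher became 5 of the cytosolic chaperones, 5 of cell wall loosening and 3 of wax synthesis, and the root markers lower became 3. At a mean of at least 2 CPM, 3 genes of salicylic acid and defence were higher.

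Of the 123 named genes, 4 changed sides of the threshold with median-ratio scaling, 4 with TMM and 9 with DESeq2, and 5 to 11 did when a library was left out. Replicate numbers did not pair the genotypes, since deviations of same-numbered libraries correlated at -0.00607, -0.0113 and 0.0666. With the replicate number as a block, 428 genes were higher and 650 lower. Genes of few counts and the lower calls, which depend on the scaling, limit what the 3 libraries per genotype can show.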

Other observations

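Among the called genes, several classes of noncoding RNA had more lower than higher members in *cry1*, as did all genes tested, at 3.59% lower and 2.27% higher. Over all genes that balance turned to 526 higher and 498 lower with median-ratio scaling, under which the classes were not counted. Of 304 long noncoding RNA genes tested 8 were higher and 21 lower, of 27 snRNA genes 0 were higher and 7 lower, and of 40 snoRNA genes 0 were higher and 6 lower. Most called genes were protein-coding, 410 higher and 616 lower of 17907 tested. *U1.6*, a U1 snRNA gene with near-identical copies among which reads may be split, had 367, 297 and 259 CPM in *cry1*, against 933, 892 and 679 CPM in WT (log2 fold change -1.44, edgeR adjusted p = 4.9e-04, and 0.074 in the fit of all 12 libraries). The study gives rRNA depletion and the labels polyA RNA, and the part of this in the snRNA values was not tested.

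In the catalase family *CAT3* stood at 4930, 4850 and 4480 CPM in *cry1*, against 2910, 2390 and 2920 CPM in WT, while *CAT2* stood at 1310, 1190 and 1310 CPM in *cry1*, against 2080, 2200 and 1790 CPM in WT. The clock gene *CCA1* had a log2 fold change of 0.38 at 44°C (adjusted p = 0.0013) and of -1.06 at 22°C (adjusted p = 4.7e-08).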
